A study of Homo sapiens with 3 samples.

Results

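Caki-1 is an established human clear cell renal carcinoma line, and RNA of 3 cultures was sequenced to ask which transcripts differ when *RBCK1* is depleted. One culture received a non-targeting siRNA (si-Control) and the other two received si-HOIL-1#1 or si-HOIL-1#2, different siRNAs against *RBCK1*, which encodes HOIL-1, a subunit of the linear ubiquitin chain assembly complex. Per the study's RNA-seq methods RNA was taken 48 h after transfection. Its general transfection methods give 10 nmol/L siRNA. Some other assays of the study used other concentrations, and none is stated for these libraries. Total RNA was depleted of ribosomal RNA, made into directional libraries and sequenced in paired ends, with 1 library per condition. The 10 genes described here, of 44591 in the table, are the HSP70 genes *HSPA8*, *HSPA1A* and *HSPA1B*, the HSP110 genes *HSPA4* and *HSPH1*, the cytosolic HSP90 genes *HSP90AA1* and *HSP90AB1*, the mitochondrial chaperonin pair *HSPD1* and *HSPE1*, and the transcription factor gene *HSF1*. They were chosen by family, with their RPKM levels and their ratios to si-Control in these same 3 libraries already known. Those levels and ratios are therefore a description and carry no test, and no spread between cultures is known, since each condition was sequenced from a single culture. Transient siRNA knockdown in 1 line leaves part of the *RBCK1* transcript, and each siRNA has 1 culture of its own.

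Heat shock proteins are molecular chaperones. HSP70 binds exposed hydrophobic stretches of unfolded proteins and releases them in cycles of ATP hydrolysis, HSP110 proteins exchange the nucleotide of HSP70, HSP90 receives partly folded kinases and receptors from HSP70, and the HSP60 chaperonin encloses proteins in a chamber inside mitochondria with HSP10 as its lid. *HSF1* is held inactive in unstressed cells by chaperones. Once released, it binds arrays of the pentamer NGAAN (N, any base) in alternating orientation in front of chaperone genes.

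The libraries were scaled by 36926834 reads (si-Control), 40442939 reads (si-HOIL-1#1) and 36344428 reads (si-HOIL-1#2), and 12403 genes passed a filter of 1 RPKM on their mean (RPKM, reads per kilobase of gene length scaled to the reads of the library). *RBCK1*, at 33.3 RPKM in si-Control, was at 9.97 and 12.3 RPKM in si-HOIL-1#1 and si-HOIL-1#2, so the targeted transcript was lower in both libraries labelled as depleted. Of 9 renal epithelial markers 4 passed the filter, among them *KRT8* (65.6, 172 and 238 RPKM) and *PAX8* (124, 82.5 and 107 RPKM), and *CA9* and *PAX2* were near 0 in each library. Leukocyte markers summed to between 0.0738 and 0.344 RPKM, endothelial markers to at most 0.0293 RPKM and fibroblast markers to between 3.87 and 5.49 RPKM, mostly *COL1A1*. The part of the keratin difference in the results below was not tested. An RPKM level is a share of a library, so fewer cells of a type and less RNA per cell cannot be told apart.

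All 10 genes passed the filter. Ratios between libraries are given as log2 ratios of RPKM + 1, a scale that understates the change of low genes, and as log2 ratios of reads per library total with exact Clopper-Pearson 95% intervals, which cover counting error only. Both siRNA libraries are compared with the same si-Control library, so the 2 ratios of a gene are not independent of each other.

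*HSF1*, the main transcription factor of the heat shock response, occupies bases 145515251 to 145538389 of chromosome 8, plus strand (coordinates of the table, hg19). Its 3 levels were 55.1 RPKM (si-Control), 60.9 RPKM (si-HOIL-1#1) and 70.8 RPKM (si-HOIL-1#2). The si-HOIL-1#2 library was the highest and si-Control the lowest, with ratios of RPKM + 1 of 0.14 (#1) and 0.36 (#2). The intervals on reads were 0.09 to 0.20 and 0.30 to 0.42, so both exclude 0 as far as counting error goes. At si-Control the level of *HSF1* ranked 1125 of 12403 genes, below *HSPA8*, *HSPA4*, *HSPD1* and both HSP90 genes and above the rest of the chaperone genes described here.

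HSF1-type elements were looked for in the promoters of the chaperone genes, since these are the sequences the factor is known to bind. RefSeq promoter windows (GRCh38.p14, a different build from the table, 250 bases before to 50 bases after each start) matched 9 of the 10 genes. Windows were searched for GAANNTTC and TTCNNGAA, the 2 ways in which a pair of alternating pentamers can face. Each motif reads the same on both strands, and where 3 units stand in a row the pair of hits overlaps by 3 bases. Of 35116 windows of all 27305 genes, 6.77% held GAANNTTC, 7.74% held TTCNNGAA, 13.49% held either, 1.71% held at least 2 hits and 0.49% held at least 3 units in a row. Such a match is a description of letters and not a bound site, and no binding was measured in these cells.

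In the stretches that follow, printed 5′ to 3′ on the strand of the gene, capitals mark the matched bases. They are shown because *HSPA8*, *HSP90AA1*, *HSP90AB1* and *HSPD1* held at least 3 units in a row in 1 window each, while *HSPA1A* and *HSPA1B* held a single exact pair. Only exact matches to the motifs were marked, so units with other letters or spacing, also beside the marked ones, were not counted. The counts of hits therefore do not rank these promoters.
HSPA8, chr11:123062346-123062374, minus strand: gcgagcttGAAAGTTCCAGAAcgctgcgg
HSPA8, chr11:123062171-123062199, minus strand: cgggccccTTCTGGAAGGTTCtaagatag
HSPA1A, chr6:31815426-31815455, plus strand: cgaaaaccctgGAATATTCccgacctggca
HSPA1B, chr6:31827622-31827651, plus strand: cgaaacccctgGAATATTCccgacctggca
HSP90AA1, chr14:102087104-102087133, minus strand: cTTCCGGAAGGTTCgggaggcTTCTGGAAa
HSP90AB1, chr6:44247770-44247798, plus strand: ggagcaggTTCTGGAAGATTCatgggctc
HSP90AB1, chr6:44247823-44247851, plus strand: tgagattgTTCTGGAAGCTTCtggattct
HSPD1, chr2:197500062-197500090, minus strand: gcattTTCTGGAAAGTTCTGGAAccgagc

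The first *HSPA8* stretch begins its hits 230 and 225 bases before the start, and the second, which overlaps an annotated UTR of a GENCODE v29 transcript, begins them 55 and 50 bases before it. *HSPA1A* and *HSPA1B* have their hit 106 and 105 bases before the start, within nearly the same stretch of letters. *HSP90AA1* has 2 windows and only the downstream one held hits, from 88 to 68 bases before its start. Its stretch lies inside an annotated UTR of a GENCODE v29 transcript. *HSP90AB1* has 3 windows, of which 1 held 4 hits at 165, 160, 112 and 107 bases before its start. That window lies downstream of the other *HSP90AB1* starts. *HSPD1* has 2 windows, of which 1 held 3 overlapping hits, from 245 to 235 bases before its start. Those hits lie downstream of the other *HSPD1* start. Neither motif occurred in the windows of *HSPA4*, *HSPH1* or *HSPE1*. *HSPD1* and *HSPE1* start head to head, with *HSPD1* starts 105 and 539 bases from the *HSPE1* start, so the *HSPD1* stretch also lies 289 bases before the *HSPE1* start, just outside the *HSPE1* window.

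*HSPA8* encodes HSC70, the HSP70 that cells make without stress, and occupies bases 122928200 to 122933043 of chromosome 11, minus strand. From 249.5 RPKM in si-Control (22667 reads), the level was 822 RPKM in the si-HOIL-1#1 library (81788 reads) and 846 RPKM in the si-HOIL-1#2 library (75618 reads). Both siRNA libraries were far above si-Control and close to each other. The ratios of RPKM + 1 were 1.72 and 1.76, the plain RPKM levels were 3.3-fold and 3.39-fold higher, and the intervals on reads were 1.70 to 1.74 and 1.74 to 1.78. Among the 12403 genes, ordered from the highest ratio down, *HSPA8* stood at position 56 with si-HOIL-1#1 and at position 34 with si-HOIL-1#2.

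*HSPA1A* and *HSPA1B*, neighbouring genes on chromosome 6 for the stress-inducible HSP70, had no such difference. *HSPA1A* (31783291 to 31785719, plus strand) measured 24.5 RPKM in si-Control, 24.4 RPKM in si-HOIL-1#1 and 20.8 RPKM in si-HOIL-1#2. *HSPA1B* (31795512 to 31798031, plus strand) was at 21.9, 16.5 and 19.0 RPKM in the same order. In no siRNA library was either gene above si-Control, and the lowest library differed between them, si-HOIL-1#2 for *HSPA1A* and si-HOIL-1#1 for *HSPA1B*. These are near-identical copies: of the windows of 50 bases along the longest protein-coding transcript of *HSPA1A* in GENCODE v29, 72.56% also occur in *HSPA1B*. How reads that fit both were divided between them, or whether they were counted at all, is therefore uncertain.

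Some of these windows also occur in a further gene, AL671762.1 (33.77% for *HSPA1A* and 35.28% for *HSPA1B*). Summed over both copies, which removes the division between them, the inducible HSP70 measured 46.4 RPKM in si-Control, 40.9 RPKM in si-HOIL-1#1 and 39.8 RPKM in si-HOIL-1#2. The sum does not restore reads given to other genes, or reads that fit both copies and were counted for neither. Whether such reads were counted is not given in the sources used here. The log2 ratios of their reads were -0.19 (interval -0.25 to -0.12) and -0.22 (interval -0.28 to -0.15). In these RPKM levels *HSPA8* exceeded the inducible pair 5.38-fold with si-Control, 20.1-fold with si-HOIL-1#1 and 21.2-fold with si-HOIL-1#2. The size of that excess depends on how shared reads were counted. *HSPA6*, a further HSP70 gene that is switched on by strong heat stress, was at 0.103, 0.262 and 0.303 RPKM, or 9, 25 and 26 reads, and did not pass the filter.

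**Figure D1:**
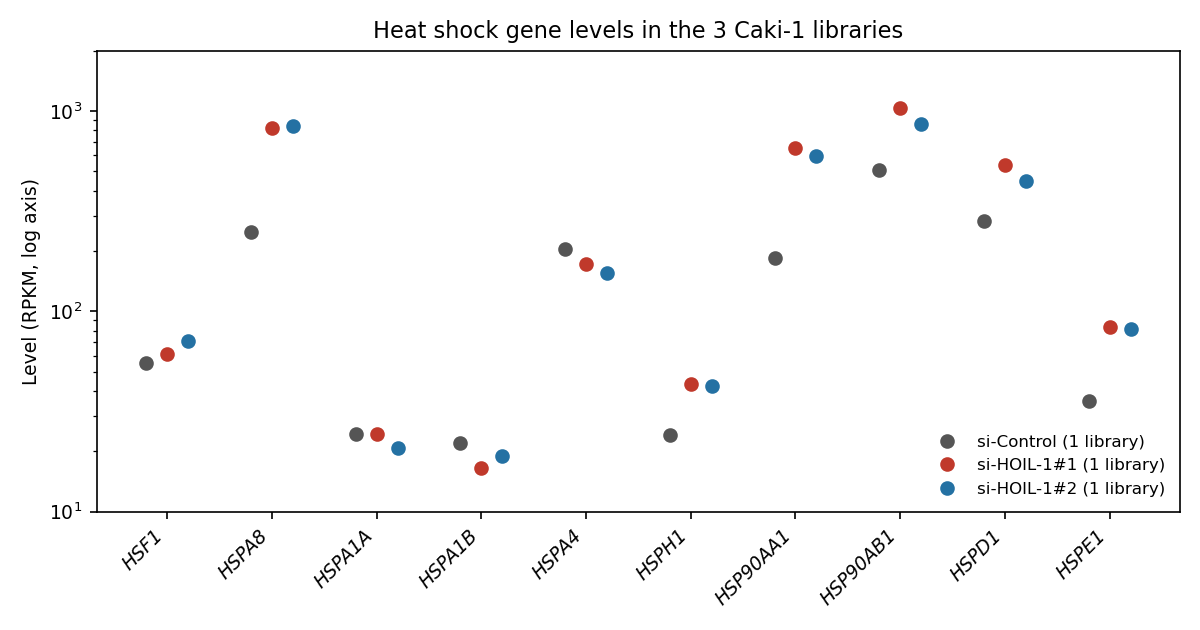
Level of each of the 10 genes in RPKM (log axis) in the si-Control, si-HOIL-1#1 and si-HOIL-1#2 libraries, 1 point per library with no error bar since each condition has 1 library. Both siRNA points lie above the si-Control point for HSPA8 (249.5 against 822 and 846 RPKM), HSP90AA1, HSP90AB1, HSPD1, HSPE1, HSPH1 and HSF1, and at or below it for HSPA1A, HSPA1B and HSPA4.

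The HSP110 genes, whose products recharge HSP70 with ATP, differed from each other in direction. *HSPA4* (chromosome 5, 132387662 to 132440709, plus strand) measured 204.7 RPKM in si-Control, 171.7 RPKM in si-HOIL-1#1 and 155.7 RPKM in si-HOIL-1#2. It was highest with si-Control, with ratios of RPKM + 1 of -0.25 and -0.39. *HSPH1* (chromosome 13, 31709111 to 31736525, minus strand), the HSP110 gene known to be inducible by heat, had levels of 24.0, 43.3 and 42.2 RPKM in the same order, from 5086, 10024 and 8780 reads. It was higher in both siRNA libraries, with ratios of 0.82 and 0.79 and intervals on reads of 0.80 to 0.90 and 0.76 to 0.86. *HSPA4* was thus 8.51 times *HSPH1* in RPKM with si-Control, 3.97 times with si-HOIL-1#1 and 3.69 times with si-HOIL-1#2, while the pair summed was at 229, 215 and 198 RPKM.

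*HSP90AA1*, the more inducible cytosolic HSP90 gene, occupies bases 102547075 to 102606086 of chromosome 14, minus strand. It measured 185 RPKM in si-Control, 653 RPKM in si-HOIL-1#1 and 594 RPKM in si-HOIL-1#2, higher in both siRNA libraries. Its ratios of RPKM + 1 were 1.81 and 1.68, its plain RPKM levels were 3.53-fold and 3.2-fold higher, and it stood at positions 44 and 46 of 12403 genes. On reads, of which there were at least 9286, 35889 and 29295, the intervals were 1.79 to 1.85 and 1.65 to 1.71.

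*HSP90AB1*, the more constitutive gene of the pair, occupies bases 44213903 to 44221625 of chromosome 6, plus strand, and had the highest level of the 10 genes in each library. It measured 507 RPKM in si-Control, 1039 RPKM in si-HOIL-1#1 and 864 RPKM in si-HOIL-1#2. It was highest with si-HOIL-1#1, and its ratios of 1.04 and 0.77 were smaller than those of *HSP90AA1*. The *HSP90AA1* level was 0.366 of the *HSP90AB1* level with si-Control, 0.629 with si-HOIL-1#1 and 0.687 with si-HOIL-1#2. Summed, cytosolic HSP90 was at 692, 1693 and 1457 RPKM.

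*HSPD1* encodes HSP60 and *HSPE1* encodes HSP10. *HSPD1* (chromosome 2, 198351308 to 198364998, minus strand) measured 281 RPKM in si-Control (25300 reads), 539 RPKM in si-HOIL-1#1 (53087 reads) and 448 RPKM in si-HOIL-1#2 (39659 reads). Its ratios of RPKM + 1 were 0.94 and 0.67, with intervals on reads of 0.92 to 0.96 and 0.65 to 0.69. *HSPE1* (chromosome 2, 198364721 to 198368187, plus strand) had levels of 35.6, 83.5 and 82.0 RPKM from 1254, 3217 and 2839 reads, with ratios of 1.21 and 1.18 and wider intervals of 1.13 to 1.32 and 1.11 to 1.30. Both genes were higher in the siRNA libraries, *HSPE1* by more, and *HSPD1* was 7.89 times *HSPE1* in RPKM with si-Control, 6.46 times with si-HOIL-1#1 and 5.47 times with si-HOIL-1#2. The gene models overlap by 278 bases on opposite strands. The library kit marks strand, but whether the counting used it is not given in the sources used here, so reads in those bases cannot be assigned with certainty.

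**Figure D2:**
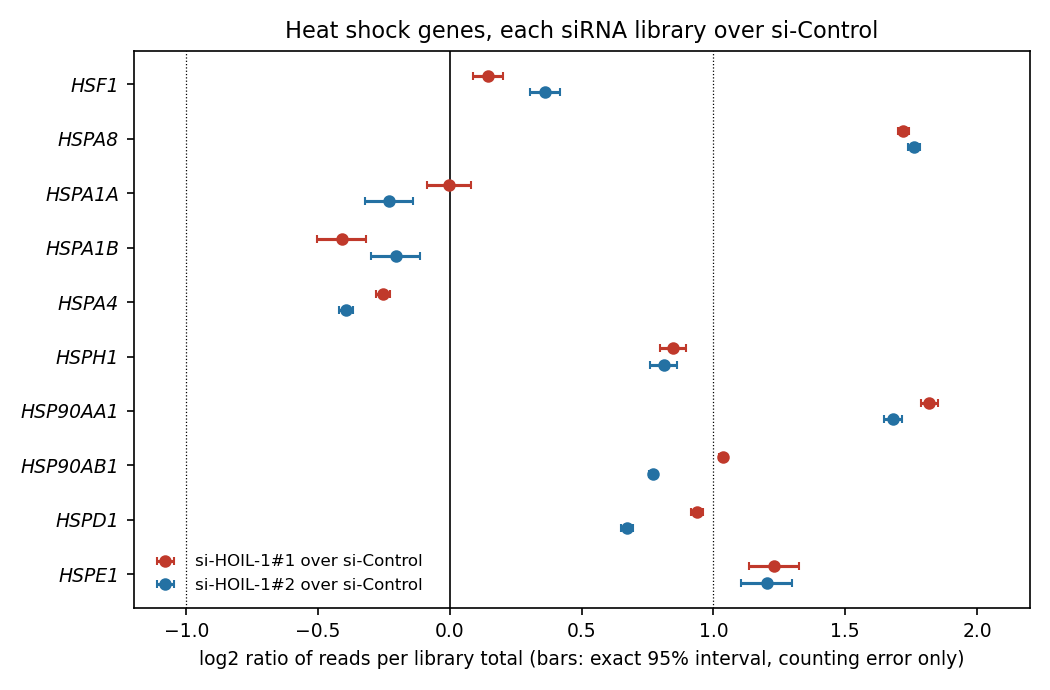
Log2 ratio of reads per library total over si-Control for each of the 10 genes (x axis), si-HOIL-1#1 in red and si-HOIL-1#2 in blue, with exact 95% intervals for counting error only and dotted lines at 2-fold. HSPA8 and HSP90AA1 lie at 1.72 and 1.76 and at 1.82 and 1.68, whereas HSPA1A, HSPA1B and HSPA4 lie at or below 0.

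The rule that named these genes used these same contrasts, so the counts that follow describe the genes and show nothing beyond them. With si-HOIL-1#1, 4 of the 10 genes (*HSPA8*, *HSP90AA1*, *HSP90AB1* and *HSPE1*) were at least 2-fold higher in RPKM + 1, where 2.91% of the 12403 genes were, and 0 were 2-fold lower, where 3.27% were. With si-HOIL-1#2, 3 of the 10 (*HSPA8*, *HSP90AA1* and *HSPE1*) were at least 2-fold higher, where 2.5% of all genes were, and 0 were 2-fold lower, where 2.27% were. At a limit of 1.5-fold the count of higher genes was 6 in each library, with *HSPH1* and *HSPD1* added to the 4 genes above, against 12.1% of all genes with si-HOIL-1#1 and 11.3% with si-HOIL-1#2. None of the 10 was 1.5-fold lower in either library, against 11.6% and 9.32% of all genes. Around the 2-fold line, *HSP90AB1* with si-HOIL-1#1 was just above it (1.04) and *HSPD1* just below it (0.94).

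The median ratio of RPKM + 1 over the 10 genes was 0.88 with si-HOIL-1#1 and 0.72 with si-HOIL-1#2. Over all 12403 genes it was 0.02 and 0.03, with 51.54% and 53.54% of genes above 0. In each siRNA library 7 of the 10 genes were above si-Control and 3 were below. The 9 chaperone genes without *HSF1* summed to 1533 RPKM with si-Control, 3393 RPKM with si-HOIL-1#1 and 3071 RPKM with si-HOIL-1#2. In reads, which are minimum counts, they made up at least 0.400%, 0.824% and 0.742% of each library's total. *HSPA8*, *HSP90AA1*, *HSP90AB1* and *HSPD1* supplied most of that sum in every library, so the sum mainly follows those 4 genes.

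**Figure D3:**
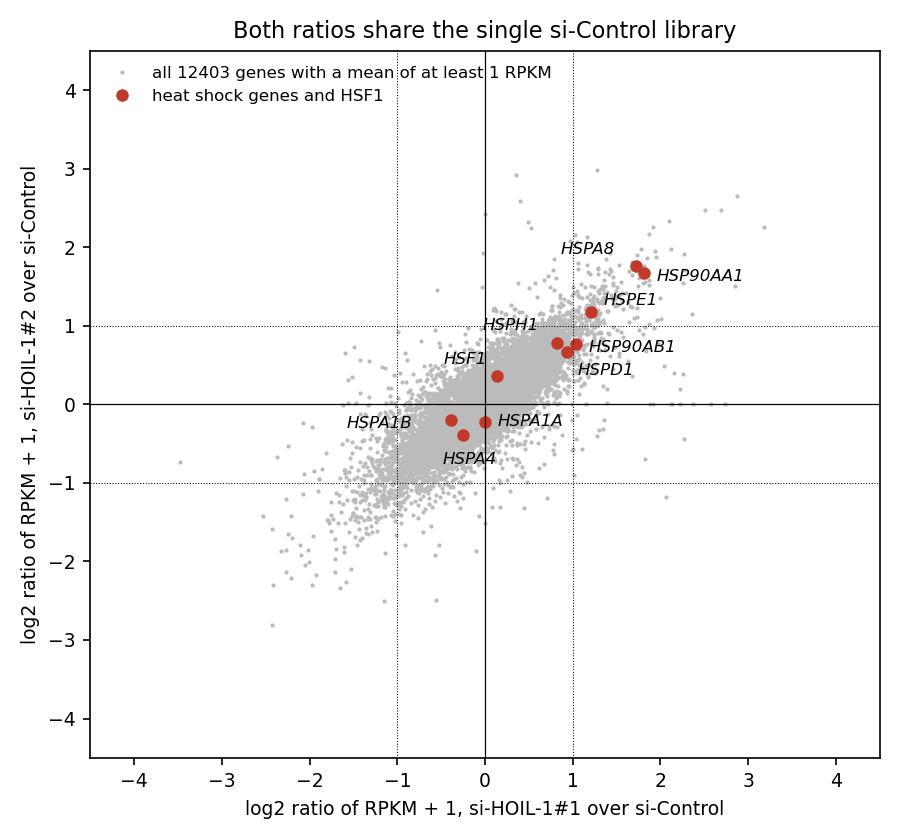
Log2 ratio of RPKM + 1 over si-Control with si-HOIL-1#1 (x axis) and si-HOIL-1#2 (y axis) for 12403 genes in grey and the 10 heat shock genes in red, with dotted lines at 2-fold. HSPA8 (1.72, 1.76) and HSP90AA1 (1.81, 1.68) lie at the upper right and HSPA4 (-0.25, -0.39) at the lower left; both axes share the si-Control library.

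The 6 genes at least 1.5-fold above si-Control in both siRNA libraries are picked for their distance from si-Control. That those 2 libraries lay closer to each other than to si-Control for these genes is therefore largely given by the choice. The same was so for *HSPA4* and narrowly for *HSPA1B*, and not for *HSF1* and *HSPA1A*. The log2 ratio of reads, si-HOIL-1#1 over si-HOIL-1#2, was 0.27 for *HSP90AB1* (interval 0.25 to 0.28) and 0.27 for *HSPD1* (0.25 to 0.29), the widest gaps upward, and -0.22 for *HSF1* (-0.27 to -0.16), the widest downward. For *HSPH1* (0.04, interval -0.0045 to 0.08) and *HSPE1* (0.03, interval -0.05 to 0.10) the difference was within counting error.

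Other chaperone genes were grouped in 11 lists drawn up from general knowledge with earlier results of these data known, and are described by counts and medians only. Several lists share genes, so their counts and medians are not separate. Of the mitochondrial list 5 genes stand in another list as well, of the ER list 6 and of the J-domain list 7. The counts above si-Control stand beside 51.54% (si-HOIL-1#1) and 53.54% (si-HOIL-1#2) of all 12403 genes. Among other HSP70 and HSP110 genes, 8 of 11 passed the filter, with 5 above and 3 below si-Control in each siRNA library and medians of 0.33 and 0.52. With a filter of 5 RPKM on the mean, which leaves out low genes such as *HSPA12A* and *HSPA2*, those medians were 0.015 and 0.15. *HSPA9*, the mitochondrial HSP70 that works beside HSP60, was at 402, 279.7 and 235 RPKM and so was lower where *HSPD1* and *HSPE1* were higher. *HSPA5*, the HSP70 of the endoplasmic reticulum (ER), was at 804, 663 and 733 RPKM, and *HSPA13* of the same compartment was at 29.6, 19.0 and 18.9 RPKM. *HSPA12A* (1.25, 4.63 and 3.23 RPKM), *HSPA2* (1.29, 2.95 and 3.07 RPKM), *HSPA4L*, the third HSP110 gene (9.08, 13.3 and 14.2 RPKM), *HSPA14* (11.9, 14.9 and 16.4 RPKM) and *HYOU1* of the ER (54.3, 69.5 and 83.0 RPKM) were higher in both siRNA libraries.

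The remaining HSP90 genes stood closer to si-Control than the cytosolic pair. *HSP90B1* of the ER was at 461, 523 and 588 RPKM, and *TRAP1* of mitochondria was at 75.3, 70.0 and 70.8 RPKM. Of 9 small heat shock protein genes 3 passed, and they differed between the siRNAs. *HSPB1* (HSP27) measured 381 RPKM in si-Control, 374 RPKM in si-HOIL-1#1 and 534 RPKM in si-HOIL-1#2, whereas *CRYAB* was at 9.68, 13.7 and 9.67 RPKM and *HSPB8* at 2.22, 3.09 and 2.46 RPKM. The medians of this list, 0.34 and 0.10, rest on those 3 genes.

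Partners of HSP70 and HSP90 had medians nearer to that of all genes than the 10 genes had. The 20 HSP90 co-chaperones had medians of 0.29 and 0.18, with 15 and 16 above si-Control. In that list *NUDC* was at 55.0, 108 and 104 RPKM, *NUDCD2* was at 4.38, 3.79 and 2.88 RPKM, and *AHSA1*, which stimulates the ATPase of HSP90 and was picked out after its values were seen, was at 35.0, 71.9 and 57.6 RPKM. The 11 exchange factors and partners of HSP70 had medians of 0.31 and 0.27, with 9 above si-Control in each library. In that list *HSPBP1* was at 14.9, 23.0 and 27.9 RPKM and *SIL1* of the ER at 36.1, 25.3 and 27.9 RPKM.

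J-domain proteins, which deliver clients to HSP70, had medians of 0.25 and 0.11 over the 22 of 23 that passed, with 16 and 14 above si-Control. Over all genes passing the filter, 51.54% and 53.54% were above si-Control. *DNAJA1*, a cytosolic partner of HSC70, measured 66.1 RPKM in si-Control, 137 RPKM in si-HOIL-1#1 and 126 RPKM in si-HOIL-1#2, and *DNAJC1* of the ER membrane was at 26.9, 12.4 and 14.6 RPKM. The 14 subunits of the cytosolic chaperonin CCT and of prefoldin had medians of 0.40 and 0.28, with 11 and 10 above si-Control. In that list *CCT3* was at 174, 381 and 292 RPKM and *PFDN2* at 237, 149 and 158 RPKM. The complexes differed. Every CCT subunit was above si-Control with si-HOIL-1#1, and all but *CCT7* with si-HOIL-1#2. Of prefoldin, *PFDN1*, *PFDN2* and *PFDN4* were below in both siRNA libraries, and *VBP1*, *PFDN5* and *PFDN6* above in both.

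Between the organelles the medians had opposite signs. The 15 ER chaperones had medians of 0.28 and 0.49, with 13 above si-Control in each library, and *SDF2L1* was at 6.85, 26.0 and 29.9 RPKM while *DNAJC3* was at 25.8, 16.3 and 22.4 RPKM. The 11 mitochondrial chaperones and proteases other than *HSPD1* and *HSPE1* had medians of -0.14 and -0.11, with 8 of 11 below si-Control in each library. *DNAJA3* was at 24.9, 31.1 and 31.3 RPKM and *HSCB* at 10.1, 6.63 and 6.63 RPKM. *HSPD1* and *HSPE1*, at ratios from 0.67 to 1.21, thus lay above the highest gene of that list, *DNAJA3* (0.31 and 0.32).

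**Figure D4:**
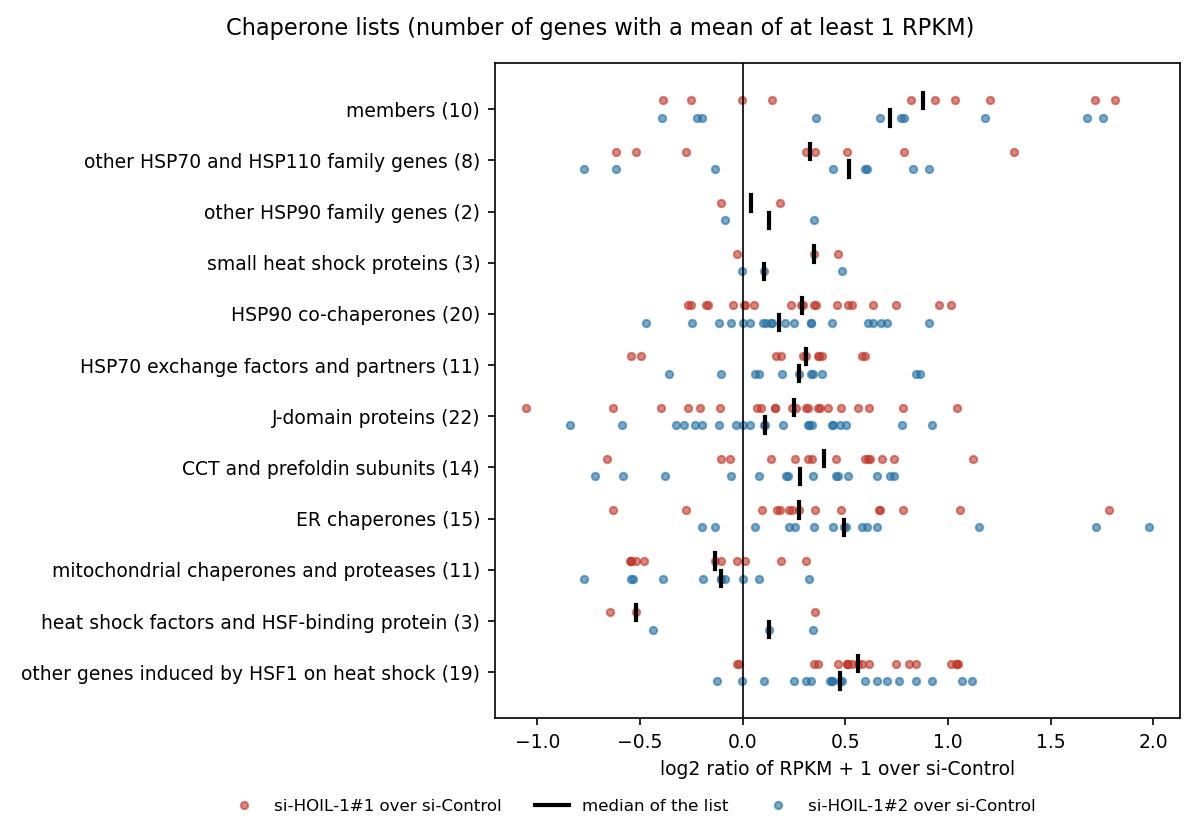
Log2 ratio of RPKM + 1 over si-Control (x axis) for each gene of the 10 described here and of 11 chaperone lists, si-HOIL-1#1 in red and si-HOIL-1#2 in blue, with a black bar at each list's median and the number of genes passing the filter in brackets. The 10 genes have medians of 0.88 and 0.72, the other genes induced by HSF1 0.56 and 0.48, and the mitochondrial list -0.14 and -0.11.

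Genes that *HSF1* is known to induce on heat shock were listed apart from the 10. Of 20 such genes 19 passed, with 17 above and 2 below si-Control in each library, medians of 0.56 and 0.48, and 4 and 2 genes at least 2-fold higher, where 2.91% and 2.5% of all 12403 genes were. Of these 20 genes 13 stand in another of the lists as well, and for the 11 that are in no co-chaperone list the medians were 0.51 and 0.49. *DEDD2* was at 8.84, 19.2 and 20.3 RPKM. *BAG3* (32.1, 48.6 and 58.5 RPKM) and *DNAJB1* (32.0, 41.5 and 44.9 RPKM), 2 widely used reporters of *HSF1* activity named here after their values were seen, had ratios of 0.58 and 0.84 and of 0.37 and 0.48. *HSPA1A* and *HSPA1B*, the usual reporters among the 10 genes, were not higher in either library. Among heat shock factors and their partner, *HSBP1* was at 64.1, 82.3 and 81.7 RPKM, *HSF2* at 10.6, 7.11 and 7.60 RPKM and *HSF4* at 3.02, 1.57 and 3.39 RPKM.

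Genes whose pair of ratios lay nearest to that of a chaperone gene were sought among 5548 protein-coding genes whose mean reached 10 RPKM, by Euclidean distance over the 2 ratios, which rest on 3 libraries. For *HSPA8* these were *MCM4* (0.064), *TUBB4B* (0.099), *TUBB6* (0.12), *HSP90AA1* (0.13) and *TUBB2A* (0.15). For *HSP90AA1* they included *TUBB2A* (0.071), *MCM10* (0.085), *FDXR* (0.12) and *HSPA8* (0.13). The replication helicase gene *MCM4* was at 17.3, 57.3 and 62.9 RPKM and the beta-tubulin gene *TUBB4B* at 140.4, 439.6 and 456.4 RPKM, which gives the scale of these neighbours. For *HSPD1* the nearest were *ATP5G3* (0.034), *TRAF4* (0.035), *SSNA1* (0.040), *TFDP1* (0.046) and *ZC3H12A* (0.047).

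Sequence shared with other genes bears on several of the levels. By the same window count, 15.41% of the *HSPA8* transcript, 17.54% of *HSP90AA1*, 18.82% of *HSP90AB1*, 24.77% of *HSPD1* and 27.19% of *HSPE1* also occur in another gene's transcript, mostly pseudogenes and, for *HSPE1*, the readthrough gene *HSPE1-MOB4*. For *HSF1*, *HSPA4* and *HSPH1* it was 0%. Pseudogenes with the parent's name summed to at most 0.415 RPKM for *HSPA8* (11 genes), 1.43 RPKM for *HSPD1* (15 genes) and 1.57 RPKM for *HSPE1* (9 genes), and the largest share of the parent's level was 1.88%, for *HSPE1* with si-HOIL-1#1. *HSPE1-MOB4* was listed at 0, 0.058 and 0.013 RPKM. Whether reads that fit several genes were counted is not known for these genes either. If such reads were left out, both the parents and these other genes would read lower. The low levels of the other genes therefore do not show how many reads the parents lost, and ratios between the chaperone genes carry that uncertainty. The introns of *HSPA8* hold the small nucleolar RNA genes *SNORD14C*, *SNORD14D* and *SNORD14E* on the same strand, which were at most 4.69 RPKM in any library. *DGAT1*, which overlaps *HSF1* by 144 bases on the opposite strand, was at 3.52, 3.75 and 4.81 RPKM.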

How the data were processed

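The authors deposited 1 table of RPKM values per gene, reads per kilobase of gene scaled to library size, for 3 Caki-1 libraries. The submitters' processing notes name FastQC, Trimmomatic, TopHat2, HTSeq and build hg19. The annotation and settings are not given in the sources used here. The study's methods name a Beijing provider for sequencing, whereas the sample records name an Illumina HiSeq run elsewhere. The 5 columns of the authors' own comparison (control, treated, log2 fold change, p and q) were not used. Groups came from the sample titles.

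Ratios were log2((RPKM + 1) / (RPKM + 1 of si-Control)) for genes whose mean reached 1 RPKM, against a limit of 2-fold. Entries that were not a number (1) were left out. Library totals were recovered from the RPKM steps of genes of at most 200 nt, and reads as the smallest whole numbers that give all 3 values of a gene, so they are minimum counts. Where a count is a fraction of the true one, its interval is wider than needed. The read counts of a gene set the width of its intervals, and the library totals only shift them. PCR copies are not independent molecules. No test was made, since each condition had 1 library.

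The members and lists were chosen with earlier results of these data known. Genes named were the 10 members, per list the genes with the highest and lowest smaller-in-size ratio of the 2 siRNAs (same sign in both), other HSP70, HSP90 and small heat shock genes that passed, and for *HSPA8*, *HSP90AA1* and *HSPD1* the 5 nearest genes of at least 10 RPKM. Some genes that this rule names are not reported here. Alternatives were pseudocounts of 0.1 and 5 RPKM, filters of 5 RPKM on the mean and of none, equal medians or totals, limits of 1.5-fold and 4-fold, the mean, and leaving out *HSPA1A* and *HSPA1B*. Promoter windows came from RefSeq (GRCh38.p14) and transcripts from GENCODE v29, and no coordinates were moved between builds. Steps were tested on simulated data. Scripts ran in Python 3.11.15 with scipy 1.17.1, numpy 2.4.6 and pandas 2.3.3, and figures in matplotlib 3.10.9.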

Additional observations from a re-analysis of the deposited data

How the results depend on the processing

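The median ratio of the 10 genes with si-HOIL-1#1, 0.88, was 0.70 as a mean, 0.99 without *HSPA1A* and *HSPA1B*, 0.83 with a pseudocount of 5 RPKM and 0.82 with equal totals. With si-HOIL-1#2 it was 0.72, and 0.64 as a mean, 0.78 without *HSPA1A* and *HSPA1B* and 0.67 with equal medians. At a limit of 4-fold 0 genes were higher with either siRNA, against 4 and 3 at 2-fold, and at 1.5-fold 6 were with si-HOIL-1#2. With equal totals *HSP90AB1* was below 2-fold with si-HOIL-1#1 (0.98). Of 48 medians and counts of the 10 genes under an alternative, 38 stayed within their limits and 10 moved. Of 120 ratios of single genes, 17 moved beyond the counting interval and 0 changed sign. Of 154 medians of other lists 29 moved, among them those of the other HSP70 and HSP110 genes (0.33 and 0.52) to 0.015 and 0.15 with a mean of at least 5 RPKM and to 0.23 and 0.23 as means, and 3 changed sign: the other HSP90 genes with si-HOIL-1#1 (-0.018, equal totals), small heat shock proteins with si-HOIL-1#1 (-0.0012, no filter on low values) and heat shock factors with si-HOIL-1#2 (-0.046, mean of at least 5 RPKM). The cause was not tested. No paired analysis was possible because the conditions had 1 library apiece. Depth sets counting error only, which for *HSPA6* with 9 reads at si-Control left an interval of 0.20 to 2.63 (si-HOIL-1#1). The spread between cultures is unknown.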
